A study of Homo sapiens with 4 samples.

Results

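Solute carriers are membrane proteins, and their genes carry symbols of the form SLC, a family number, A and a member number. The messenger RNAs described here were those of protein-coding genes with such a symbol, the mitochondrial SLC25 carriers left out, that had at least 50 reads summed over the 2 input libraries. These were 143 of 297 genes with such symbols and of 60676 genes in the deposited table. The rule matches the start of a symbol, so 5 of the 143 were genes named after a carrier that encode no carrier: SLC9A3R1 and SLC9A3R2 (scaffold proteins that bind sodium/proton exchangers), SLC4A1AP (kanadaptin), SLC7A6OS (encoded opposite SLC7A6) and SLC2A4RG (a DNA-binding protein). The other 138 had a full carrier name. Members were thus chosen by symbol and by their input reads. The 3 nearest inside the minimum were SLC24A1 with 55 reads and SLC10A4 and SLC17A7 with 52 each. Just outside lay SLC16A9 with 49, SLC22A4 with 45 and SLC52A1 with 42.

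RNA was measured in U2OS cells, an established human osteosarcoma line grown in serum-containing medium with no treatment named, by native nuclear RNA immunoprecipitation and sequencing, in which RNA recovered with an antibody from a nuclear lysate is sequenced. The 4 groups were nuclear RNA recovered with an antibody to LC3B, the same with IgG as the background control, and for each of these a matching input taken without antibody, every group being 1 library made from polyadenylated RNA with a kit for very small amounts (SMART-Seq v4). LC3B is a ubiquitin-like protein attached to autophagosome membranes that is also found in the nucleus, and the comparison asks which RNAs are recovered with it above background. With 1 library per group, differences have no check by replicates, and p-values are not given. U2OS markers were in place in the inputs: SPARC, VIM, COL1A1 and RUNX2 had 169 to 22310 reads, whereas COL1A2 and TWIST1 had at most 2. Of the 8 markers of other cell types reported here, CD3E, ALB and HBB had 0 reads in both inputs, and the most abundant, the epithelial marker EPCAM, had 153 and 128.

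Carriers move nutrients, ions and metabolites across the plasma membrane and across the membranes of lysosomes, Golgi, endoplasmic reticulum and vesicles, and most span the membrane many times. Their mRNAs are translated on ribosomes at the endoplasmic reticulum. Amino acid carriers and zinc carriers are also studied for the signalling pathways, such as mTORC1, that respond to their substrates, and several carriers are lysosomal proteins.

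Total counts ran from 10000914 reads (IgG pull-down) to 10886762 (IgG input). Mitochondrial genes took 22.8% of the IgG input and 20.8% of the LC3B input but 1.76% and 0.774% of the IgG and LC3B pull-downs, so levels were scaled to the reads outside mitochondrial genes. On this scale the 143 members took 0.487% and 0.520% of the inputs (IgG, then LC3B) and 0.527% and 0.599% of the pull-downs. Reads of a gene are given below in that order, IgG before LC3B, first for the inputs and then for the pull-downs. Each member had reads in both inputs and with LC3B, but 30 of 143 had 0 reads with IgG. The IgG pull-down stood apart from the other libraries, with reads on 14440 genes against 22947 to 23915 elsewhere. Of the 11327 protein-coding genes outside the mitochondrial genome with at least 50 input reads, the background used throughout, 14.6% had 0 reads there. What part this library's fewer genes have in the folds over it was not tested.

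The inputs gave nearly the same picture of the carriers, with 0 of 143 members called different between them, against 0.0441% of the background called higher and 0.0883% lower. A gene was called higher where the lower bound of the 95% exact counting interval of its fold was at least 2, and lower where the upper bound was at most 0.5. The median log2 ratio of the LC3B input over the IgG input was 0.11 for the members and 0.02 for the background, and 99 of 143 members lay above 0. Across all background genes the 2 inputs differed with 2.84 times the variance of counting alone, so the intervals, which cover counting error only, are too narrow as a measure of how libraries differ.

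By deposited TPM (a level per transcript length, scaled within each library) SLC3A2 was the most abundant member. SLC3A2 encodes the heavy chain CD98, which brings several SLC7 amino acid carriers to the cell surface, and its mean TPM over the 2 inputs was 151. It was followed by SLC50A1 (a sugar carrier of the SWEET family) at 82.0, SLC38A2 (a sodium-coupled neutral amino acid carrier) at 71.5, SLC39A1 (a zinc importer) at 68.7 and SLC29A1 (a nucleoside carrier) at 68.5. Those of SLC38A2, SLC39A1 and SLC29A1 lay close together, and without replicates their order is not settled. SLC43A3 (a carrier of purine nucleobases) at 55.7, SLC52A2 (a riboflavin carrier) at 54.98, SLC30A9 (a zinc carrier) at 46.4, SLC1A5 (the glutamine carrier ASCT2) at 42.3, SLC12A5 at 41.8, SLC9A3R1 at 37.2 and SLC30A5 (a zinc exporter) at 36.2 completed the 12 highest. SLC12A5, a potassium/chloride carrier known from neurons, reached that rank with only 80 and 100 input reads, at 2.15 reads per TPM against 23.4 for the median member. Reads per TPM follow the transcript length used in the deposited calculation, so its rank is uncertain.

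The LC3B pull-down was set against the IgG pull-down first, because this comparison uses neither input and so neither library that chose the members. It called 67 of 143 members higher with LC3B, 46.9% of them, where 30.8% of the background was called higher, and 13 members lower (9.09%) where 8.04% of the background was. The median log2 ratio was 1.05 for the members and 0.33 for the background. With intervals widened by the variance between the inputs, 57 members were called higher and 10 lower, and the background share was not taken. Among those that then lost their calls were SLC38A7, SLC39A4, SLC22A18, SLC2A13 and SLC35A1, named below by their main calls. Of the 67, 30 had 0 reads with IgG, and the other folds lay between 2.53 (SLC38A7) and 433 (SLC38A10). The members had fewer input reads than the background (median 298 against 514), and genes with few input reads were more often without IgG reads. Among the 103 members whose span in the deposited coordinates overlaps no other gene of at least 50 input reads, 45 were called higher and 10 lower. Overlaps were not looked up for background genes, so these counts have no like share beside them.

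Bands of input reads, chosen after the values were seen, set members beside background genes of like input level. Between 50 and 99 input reads 17 of 22 members were called higher (77.3%, background 59.02%), and between 100 and 199 reads 18 of 28 were (64.3%, background 50.7%). Between 200 and 499 reads the share was 18 of 44 (40.9%, background 37.3%), and between 500 and 999 it was 4 of 24 (16.7%, background 23.98%). With at least 1000 input reads 10 of 25 members were called higher (40%), against 11.4% of 3632 background genes, and 2 were called lower. No member of this band had 0 IgG reads. The share thus stood above the background in 4 bands and below it between 500 and 999 reads. Members and background were not compared by a test in any band.

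**Figure D1:**
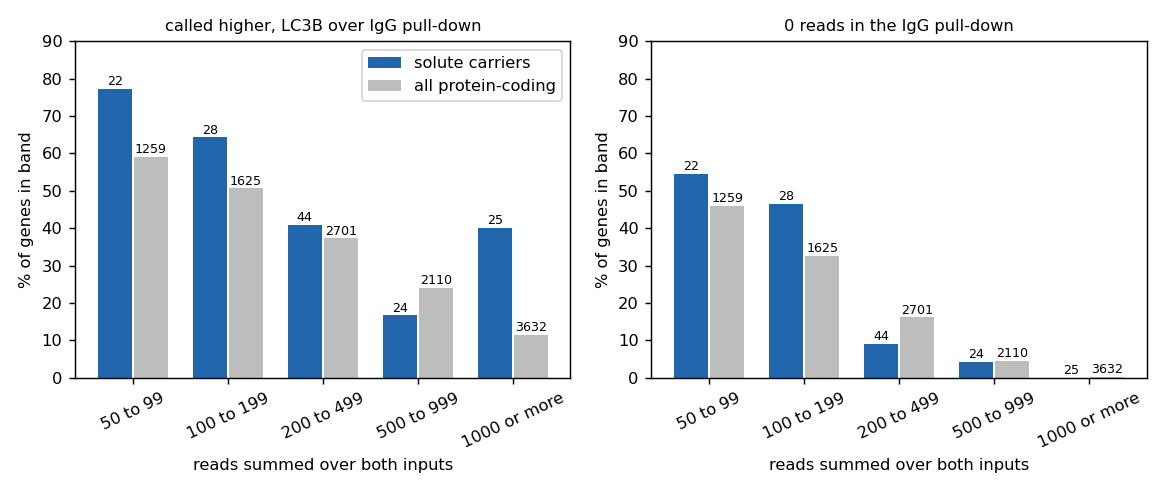
Percentage of genes called higher with LC3B over IgG (left) and percentage with 0 reads in the IgG pull-down (right), by reads summed over both inputs, for solute carriers (blue) and all protein-coding genes tested (grey); numbers above bars are genes in the band. In the band of 1000 or more reads the left bars stand at 40% and 11.4%, while both right bars are close to 0.

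The 10 abundant members called higher were SLC38A2, SLC7A5, SLC16A1, SLC39A10, SLC35A5, SLC39A7, SLC30A1, SLC39A9, SLC39A14 and SLC39A6, of which 6 are zinc carriers (9 of the 25 are SLC30 or SLC39 genes). SLC16A1, the lactate and pyruvate carrier MCT1, lies at chr1:112911847-112957013 (hg38, minus strand) and had 1000 and 1190 input reads and 8 and 1560 pull-down reads. The IgG pull-down was the single low library, and the LC3B pull-down was 185-fold above it (95% counting interval 93.5 to 428) but 1.08-fold (1.0 to 1.17) above its own input. An antisense gene, SLC16A1-AS1, overlaps SLC16A1, and without a stated strand setting their reads cannot be told apart. SLC35A5, of the family of Golgi nucleotide-sugar carriers, behaved likewise, with 620 and 676 input reads and 4 and 776 pull-down reads. Its fold over the IgG pull-down was 184 (71.5 to 676) and over its own input 0.945 (0.851 to 1.05); ATG3 overlaps it on the other strand. In SLC38A2 the same order was milder, with 2976 and 3288 input reads, 864 and 3948 pull-down reads, a fold of 4.33 (4.02 to 4.66) over IgG and of 0.989 (0.944 to 1.04) over the LC3B input.

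**Figure D2:**
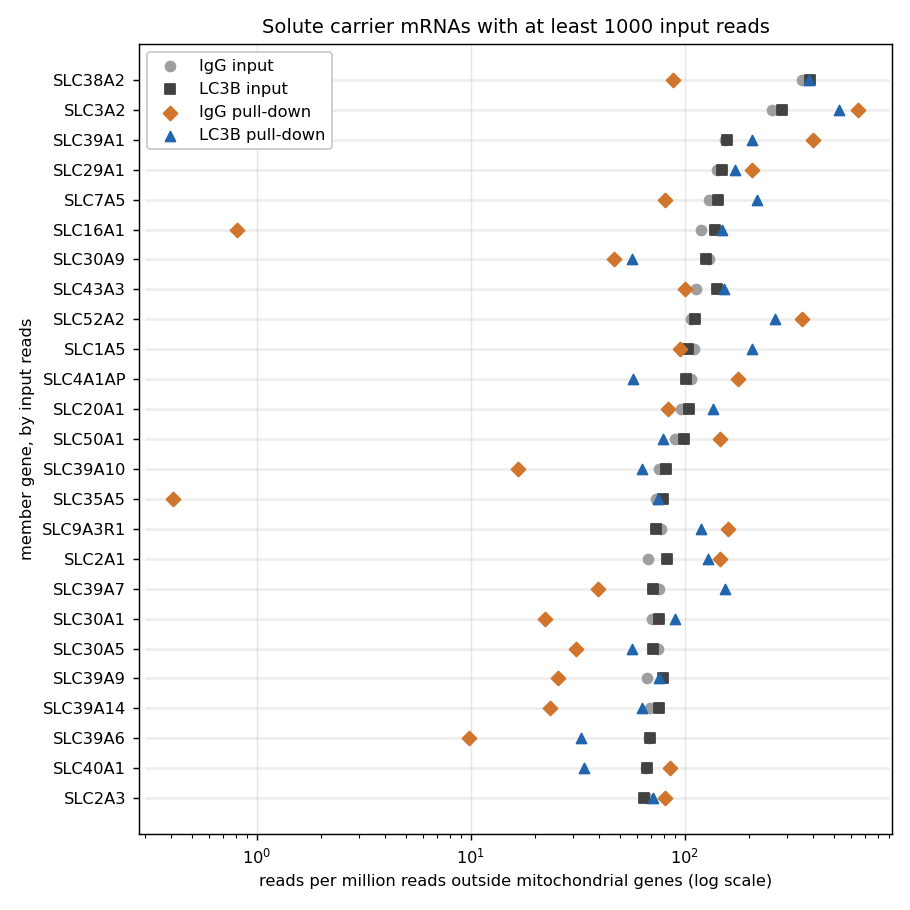
Reads per 1000000 reads outside mitochondrial genes (log axis) in the 4 libraries for the 25 members with at least 1000 input reads, 1 point per library. The inputs overlie each other, and the IgG pull-down (orange diamonds) lies farthest from them for SLC16A1 and SLC35A5.

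Members with no IgG reads were present in every other library. The 30 had 52 to 605 input reads (median 114) and 22 to 520 reads in the LC3B pull-down (median 88.5), and their LC3B folds over input lay between 0.502 and 2.54 (median 1.17), none of them called. SLC10A3, a carrier of the bile acid family with no settled substrate, was the most abundant of them with 302 and 303 input reads and 0 and 520 pull-down reads. It was at least 164-fold higher with LC3B than IgG, a bound set by putting 3 reads in the empty library, and 1.41-fold (1.22 to 1.63) above the LC3B input. Next by input reads came SLC6A6 (taurine, at least 58.7-fold over IgG), SLC4A7 (sodium bicarbonate, at least 27.8-fold) and SLC46A3 (a lysosomal carrier, at least 41.4-fold). SLC4A2 (chloride/bicarbonate exchange) was at least 81.4-fold higher, SLC27A4 (fatty acid transport) at least 52.1-fold, SLC29A3 (lysosomal nucleosides) at least 32.8-fold and SLC27A1 (fatty acid transport) at least 52.7-fold. SLC5A2 (sodium-coupled glucose uptake) stood at least 35.4-fold and SLC23A2 (vitamin C) at least 42.6-fold higher.

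Relative to the matching input, the LC3B library held the carriers at nearly their input levels. Only 2 of 143 members were called higher (1.40%, background 1.12%) and 4 lower (2.797%, background 5.19%), and 126 of 143 lay within 2-fold of the input by point fold, against 85.0% of the background. The median log2 ratio was 0.12 for members and -0.04 for the background. These ratios use input counts, which also chose the members. With totals of all genes, mitochondrial reads included, the split was 10 higher and 0 lower among members and 637 and 203 in the background, where it was 127 and 588 otherwise, and the background median moved to 0.28.

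The 2 called higher were SLC52A2 and SLC38A10. SLC52A2, the riboflavin carrier, had 901 and 961 input reads and 3468 and 2744 pull-down reads. Both pull-downs were high and the inputs low, with folds over the own input of 2.35 (2.18 to 2.53) for LC3B and 3.29 (3.06 to 3.55) for IgG, and the LC3B pull-down was 0.749-fold (0.712 to 0.788) the IgG one. It was the 1 member called higher in both pull-downs (background 0.194%). FBXL6 overlaps it on the other strand. SLC38A10, a carrier of the neutral amino acid family, lies at chr17:81244811-81295547 (hg38, minus strand) and had 165 and 151 input reads and 1 and 457 pull-down reads. Here the LC3B pull-down alone was high, 2.49-fold (2.07 to 3.02) above its input and 433-fold (77.3 to 17128) above the IgG pull-down, whose single read gives that fold its wide interval. No other member was called higher in both of these comparisons, which share the LC3B library, against 0.486% of the background; with intervals widened by the variance between the inputs SLC38A10 was no longer called over its input.

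The 4 called lower than the LC3B input were SLC35A3 (Golgi UDP-N-acetylglucosamine), SLC36A4 (a proton-linked amino acid carrier), SLC17A5 (sialin, the lysosomal sialic acid carrier) and SLC30A9. SLC36A4 had 343 and 350 input reads and 1004 and 156 pull-down reads. The pull-downs lay on opposite sides of their inputs, at 2.50-fold (2.21 to 2.84) for IgG and 0.367-fold (0.302 to 0.444) for LC3B. SLC36A4 was the 1 member called higher in the IgG and lower in the LC3B pull-down, a pattern of 0.0265% of the background, and SLC38A10 was the 1 member with the mirror pattern (background 0.221%). SLC35A3 had 393 and 370 input reads and 347 and 165 pull-down reads, so that LC3B alone was low (0.367-fold its input, 0.304 to 0.442). SLC17A5 stood at 0.399 (0.320 to 0.496) and SLC30A9 at 0.451 (0.408 to 0.4996) of the LC3B input. SLC30A9 was low in the IgG pull-down as well, at 0.360 (0.322 to 0.401), and was the 1 member called lower in both (background 2.07%). None of the 4 was called with totals of all genes or with the widened intervals.

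The IgG pull-down spread the carriers far more widely around its input. It called 62 of 143 members lower (43.4%, background 31.8%) and 12 higher (8.39%, background 7.9%), and 54 of 143 (37.8%) lay within 2-fold of the input, against 51.9% of the background. The median log2 ratio was -0.70 for members and -0.39 for the background, and between the 10th and 90th percentiles of members the ratios ran from -7.04 to 1.16, against -0.80 to 0.92 in the LC3B pull-down. This comparison and that of the pull-downs both use the IgG library. A total of 45 members (31.5%) were at less than 0.1 of the IgG input, against 19.7% of the background. Across the 143 members the LC3B and IgG ratios, each over its matching input and so without a common library, correlated at r = -0.0116 (Spearman 0.0535), and across the 11327 background genes at 0.127 (0.229).

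**Figure D3:**
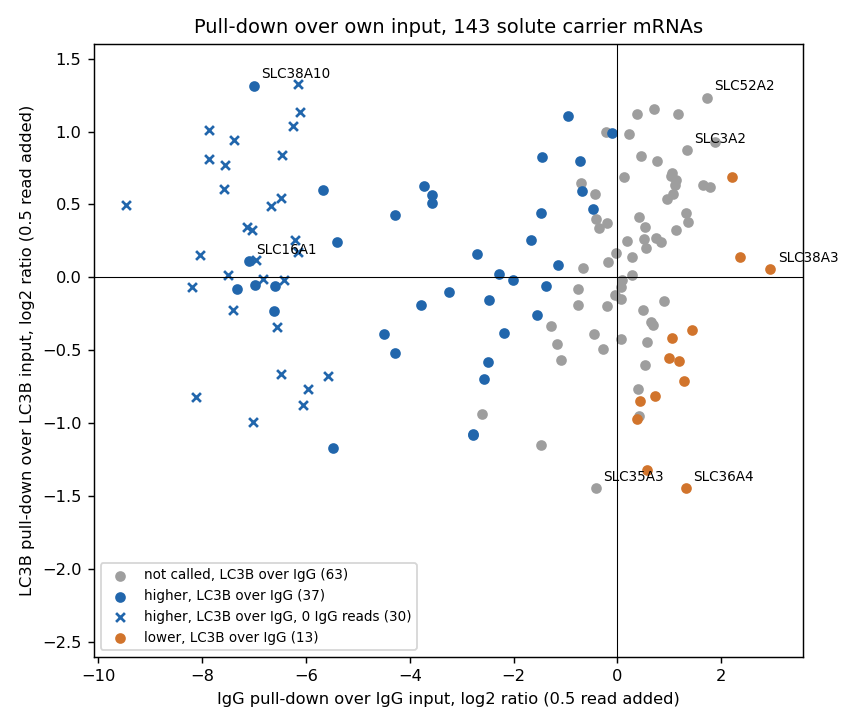
Log2 ratio of pull-down to matching input for LC3B (vertical) and IgG (horizontal) for the 143 members, 1 point per gene, coloured by the call of LC3B over IgG pull-down; crosses had 0 IgG reads. Points spread from -9.47 to 2.95 horizontally but from -1.44 to 1.33 vertically.

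Of the 12 members called higher with IgG over input, the 8 with the highest lower bounds are given here, and most had few input reads. SLC38A3 (a glutamine carrier) had 30 and 41 input reads and 275 and 52 pull-down reads. Its fold was 7.84 (5.37 to 11.9) with IgG and 1.04 (0.680 to 1.61) with LC3B over the own input. SLC10A4, known from neurons, had 32 and 20 input reads, 194 and 27 pull-down reads and a fold of 5.19 (3.56 to 7.79) with IgG. These 2 carriers were thus high in the IgG pull-down alone. SLC22A18 stood at 4.65 (3.81 to 5.71), SLC22A17 (a receptor for lipocalin) at 3.71 (2.84 to 4.91), SLC2A8 at 3.46 (2.82 to 4.26) and SLC2A6 at 3.16 (2.58 to 3.91), the last a pair of intracellular hexose carriers. SLC52A2, given above, was another, and SLC3A2 (chr11:62856102-62888875, hg38, plus strand) completed the 8, with 2143 and 2446 input reads and 6365 and 5440 pull-down reads. Both pull-downs were above both inputs, at 2.54-fold (2.42 to 2.67) with IgG, a call, and 1.83-fold (1.75 to 1.92) with LC3B, not called. SLC3A2 alone made up 12.3% of all member reads in the IgG and 8.75% in the LC3B pull-down, against 5.24% and 5.51% in the inputs.

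Of the 13 members called lower with LC3B than IgG, 10 had the smallest upper bounds. Of these SLC10A4 was at 0.132 (0.0847 to 0.198), SLC36A4 at 0.147 (0.124 to 0.174) and SLC38A3 at 0.179 (0.131 to 0.242). SLC66A3, SLC17A5, SLC2A13 (a myo-inositol carrier), SLC4A1AP, SLC49A4 (a lysosomal membrane protein), SLC7A6OS and SLC7A6 (an SLC3A2 partner) lay between 0.282 and 0.371. SLC7A6 and SLC7A6OS overlap on opposite strands and had like folds (0.371 and 0.366), and their reads cannot be told apart here. SLC40A1, ferroportin, the iron exporter, was called lower too at 0.399 (0.351 to 0.452), with 555 and 569 input reads and 838 and 353 pull-down reads, as were SLC22A18 at 0.413 (0.357 to 0.477) and SLC35A1, the CMP-sialic acid carrier, at 0.431 (0.372 to 0.498). SLC4A1AP, which is no carrier, had 903 and 865 input reads and 1753 and 599 pull-down reads, so its pull-downs lay on either side of the inputs.

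By substrate class the share called higher with LC3B over IgG differed, along with input level. Classes follow the SLC family number, so SLC43A3 counts with the amino acid carriers of its family. Of 30 amino acid members 13 were called higher and 4 lower (median log2 ratio 0.58), and of 26 metal ion members 11 and 1 (0.72). Sugars and carboxylates had 9 of 20 higher and 1 lower (1.12), nucleosides and nucleotide sugars 4 of 9 and 1 (1.05), and other solutes 5 of 10 and 3 (0.80). Inorganic ion and pH carriers had 13 of 25 higher and 0 lower (1.95), and vitamin, lipid and choline carriers 12 of 18 and 1 (4.24). Of the 5 genes named after a carrier 0 were called higher and 2 lower (-0.41). The classes of vitamins, lipids and choline (median 176 input reads, 9 of 18 at 0 IgG reads) and of inorganic ions (180 reads, 8 of 25 at 0) held fewer reads than the metal ion class (715 reads, 0 of 26 at 0). Of the background 30.8% was called higher and 8.04% lower over all input levels, and 50.7% was called higher between 100 and 199 input reads. Class and input level were not separated. The most abundant members of the ion class after SLC12A5 were the phosphate carriers SLC20A1 at 1.64 (1.501 to 1.79) and SLC20A2 at 0.958 (0.822 to 1.12) over IgG, neither called. The choline-like carrier SLC44A2 was called at 5.61 (4.21 to 7.61).

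**Figure D4:**
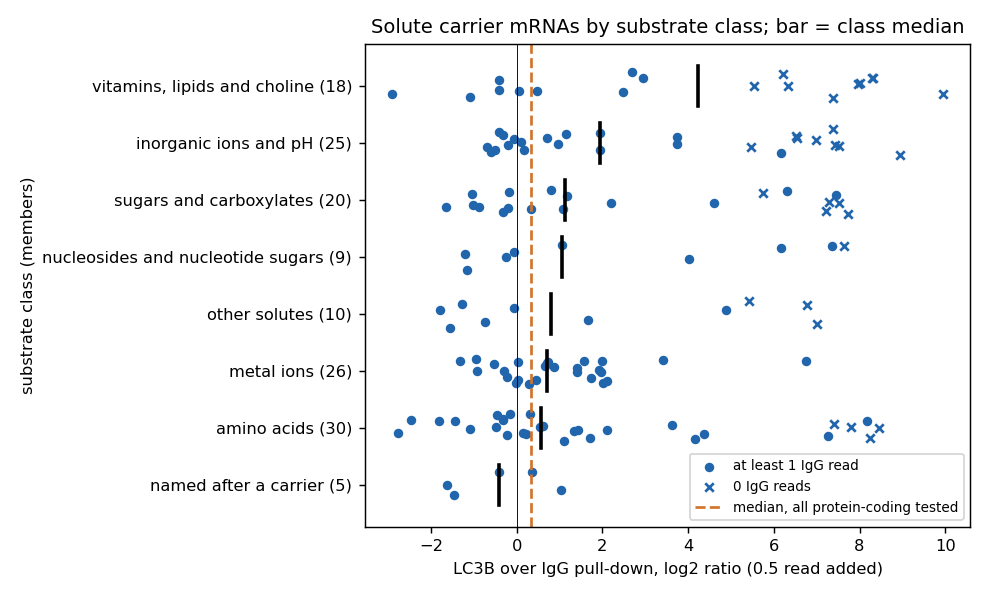
Log2 ratio of the LC3B over the IgG pull-down for each member by substrate class (members in parentheses), 1 point per gene; crosses had 0 IgG reads, black bars are class medians and the dashed line the background median of 0.33. The vitamin, lipid and choline class has the highest median, 4.24, and 9 of its 18 points are crosses.

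SLC3A2 and the SLC7 carriers it brings to the membrane had different calls over IgG, and their differences were not tested. SLC7A5 (LAT1, large neutral amino acids) had 1092 and 1230 input reads and 794 and 2252 pull-down reads, so that LC3B was the high library. Its folds were 2.69 (2.48 to 2.92) over IgG and 1.51 (1.41 to 1.62) over the LC3B input, the latter not called. SLC7A11 (xCT, cystine/glutamate exchange) had 161 and 208 input reads and 1 and 244 pull-down reads. It was near absent from the IgG pull-down alone, at a fold of 231 (41.1 to 9162) over IgG but 0.966 (0.799 to 1.17) over the LC3B input. SLC7A6 lay on the other side, at 0.371 over IgG, and SLC3A2 itself was not called at 0.809 (0.780 to 0.839). SLC7A1, a cationic amino acid carrier that works without SLC3A2, had 142 and 146 input reads, 12 and 274 pull-down reads and a fold of 21.6 (12.2 to 42.4) over IgG. SLC7A7 (y+LAT1), a partner of SLC3A2, had 108 and 107 input reads and 245 and 189 pull-down reads. Like SLC3A2 it had both pull-downs above both inputs, 1.94-fold (1.54 to 2.46) with IgG and 1.45-fold (1.14 to 1.86) with LC3B, and was not called over IgG at 0.730 (0.601 to 0.887). SLC1A5 stood at 2.15 (1.99 to 2.33) over IgG and 1.99 (1.84 to 2.16) over the LC3B input, just short of both calls.

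Zinc carriers were the most abundant metal group. Of the 11 SLC39 importers, which bring zinc into the cytosol, 7 were called higher with LC3B over IgG and 0 lower (median log2 ratio 1.42), where 30.8% and 8.04% of the background were. SLC39A7, of the endoplasmic reticulum and Golgi, had 640 and 611 input reads and 388 and 1596 pull-down reads. Its LC3B library was the highest, 3.90-fold (3.48 to 4.36) over IgG and 2.15-fold (1.96 to 2.37) over the LC3B input, the latter just short of a call, and RXRB overlaps it on the other strand. In SLC39A6 (573 and 591 input reads, 97 and 341 pull-down reads) both pull-downs lay under the inputs, at 0.145 (0.116 to 0.180) with IgG and 0.475 (0.414 to 0.544) with LC3B, the first a call. SLC39A10 stood at 3.79 (3.19 to 4.53) over IgG, SLC39A9 at 2.96 (2.56 to 3.42), SLC39A14 at 2.67 (2.30 to 3.12), SLC39A4 at 2.64 (2.09 to 3.37) and SLC39A8 at 161 (28.5 to 6395) with a single IgG read. SLC39A1 went the other way, with 1305 and 1347 input reads, 3910 and 2134 pull-down reads and 0.517 (0.490 to 0.545) over IgG, not called. Of the 7 SLC30 carriers, which move zinc out of the cytosol, 3 were called higher: SLC30A1, the plasma membrane exporter, at 4.06 (3.51 to 4.73), SLC30A6 at 4.36 (3.33 to 5.78) and SLC30A4 at 11.4 (5.28 to 29.1).

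Among the 8 sugar carriers of the SLC2 family most were not called, with 2 higher and 1 lower and a median log2 ratio of -0.19 over IgG. Most background genes were not called either, with 30.8% higher and 8.04% lower. SLC2A1 (GLUT1, the main glucose carrier of dividing cells) had 567 and 705 input reads and 1434 and 1329 pull-down reads. Both pull-downs were above both inputs, 2.16-fold (1.96 to 2.39) with IgG and 1.55-fold (1.42 to 1.70) with LC3B, without a call. SLC2A3 (GLUT3) lay close to its inputs throughout, at 1.22 (1.09 to 1.36) and 1.10 (0.986 to 1.23). SLC2A12 differed from both, with 210 and 202 input reads, 2 and 209 pull-down reads and 98.95-fold (27.1 to 822) over IgG.

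Among families with at least 4 members, 2 had every member called higher over IgG. All 4 SLC27 members (SLC27A1, SLC27A2, SLC27A4 and SLC27A5), which import or activate fatty acids, had 0 IgG reads and were called higher with LC3B over IgG, by at least 13.3-fold to at least 52.7-fold. Their folds over the LC3B input were 0.988 to 2.07, none called. Their median input was 121 reads, and in the band of 100 to 199 reads 50.7% of the background was called higher and 32.7% had 0 IgG reads. SLC27A6, which fell short of the input minimum, lay on the other side with 232 IgG and 52 LC3B pull-down reads, at 0.212 (0.154 to 0.288) over IgG. All 4 SLC6 members (SLC6A6, SLC6A8 for creatine, SLC6A9 for glycine and SLC6A15) were called higher over IgG too, and 4 of 5 SLC16 members. Of 6 SLC9 sodium/proton exchangers 5 were, and of 6 SLC12 cation/chloride carriers 1, SLC12A8. Over all input levels 30.8% of the background was called higher. The choice of these families was made with their values in view, and nothing is read from their counts.

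Among related genes the share called higher over IgG was lowest, at 6.67%, in SLC35B to SLC35F nucleotide-sugar carriers (1 of 15). The member rule leaves these out by their letters. The share was highest, at 54.5%, in P-type ATPases, the ion and lipid pumps, taken with their beta subunits (12 of 22). SLC25 carriers of the mitochondrial inner membrane had 8 of 36 (22.2%) and genes named TMEM, for transmembrane protein, 36 of 150 (24%). Genes of the ABC family had 5 of 19 (26.3%). This ABC set includes ABCE1, ABCF1, ABCF2 and ABCF3, which are no membrane transporters. The 143 members stood at 46.9%. Median input reads were 298 for the members, 604 for SLC25, 609 for TMEM and 557 for SLC35B to SLC35F. They were 264 for the P-type ATPase set and 290 for the ABC set. The ABC set had a median log2 ratio over IgG of -0.40, against 1.05 for the members. Its ABCE1 and ABCF genes stood between -1.87 and -0.40, and its other genes lay on both sides of no change. The transporters of the ABC set were not summarised without these genes. Over the LC3B input the median log2 ratios of these 5 sets were between -0.11 and 0.17, against 0.12 for the members. With 1 library per group no difference between sets was tested.

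**Figure D5:**
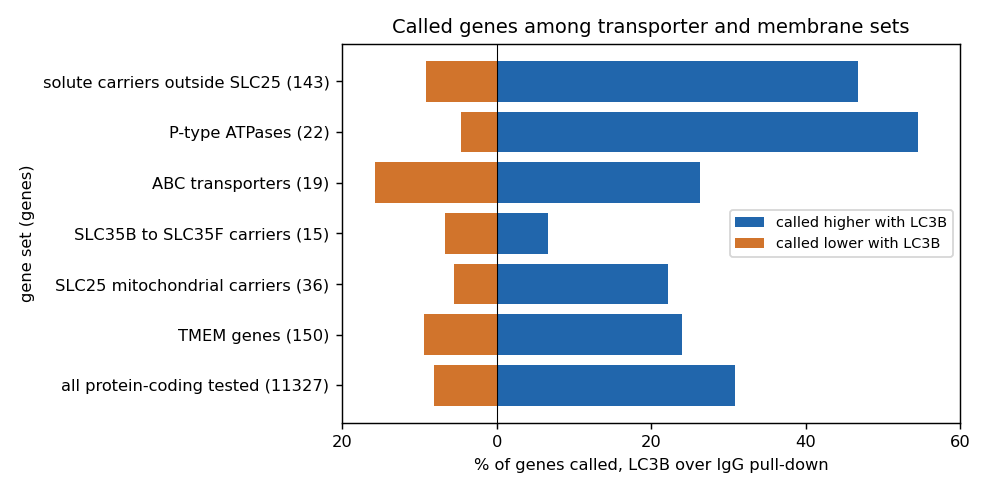
Percentage of genes called higher (right, blue) and lower (left, orange) with LC3B over IgG for solute carriers outside SLC25 and for related sets, with the number of genes in parentheses. Solute carriers stand at 46.9% and 9.09%, all protein-coding genes tested at 30.8% and 8.04%. The bar labelled ABC transporters includes ABCE1 and ABCF genes, which are no transporters, and that labelled P-type ATPases includes their beta subunits.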

How the data were processed

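Raw read counts per Ensembl gene and TPM values (scaled within each library, with transcript lengths not given in the sources used here) were deposited by the authors for 4 libraries, per the file headers. The build hg38 and the tools STAR 2.7.1a and cutadapt 2.8 come from the submitters' processing notes. Counting tool, multi-mapping treatment and strand setting: not given in the sources used here. Grouping commas were removed from the counts. Folds were scaled by reads outside chromosome MT, with exact conditional binomial (Clopper-Pearson) 95% intervals (Python 3.11.15, scipy 1.17.1), tested on simulated data. Median log2 ratios had 0.5 read added to each count. An empty library was set to 3 reads for folds given as at least, which are not interval bounds. Intervals and bounds reflect counting error alone. They treat reads as independent molecules, which amplified reads without molecular identifiers are not. Trimmed-mean (TMM) and median-of-ratios factors came from purpose-written code. Members and lists were chosen with earlier results of these data known. Named genes were the 12 most abundant members by input TPM and 3 per class, up to 10 called in each direction with LC3B over IgG, by the bound nearest 1 (over input too if higher), the 8 highest (by lower bound) and 8 lowest (by upper bound) called over each input, the 10 with most input reads among those without IgG reads, those called in opposite directions, SLC3A2 with its SLC7 group, and the 3 nearest each side of the minimum; others named were chosen after their values were seen.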

Additional observations from a re-analysis of the deposited data

Results flagged for a closer look

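Carrier genes under the minimum of 50 input reads were in none of the main comparisons. Of these 154 genes, 3 had at least 50 reads in a pull-down and were called higher than its input, each in the IgG pull-down. No like share of other genes under the minimum was taken, so nothing is read from this count. SLC27A6 (a fatty acid transport protein) had 232 reads with IgG, against 19 and 18 in the IgG and LC3B inputs and 52 with LC3B. SLC2A2 (GLUT2, a glucose carrier known from liver and pancreas) had 77 reads with IgG and 0 in the other libraries. SLC12A9 had 76 reads with IgG, against 17 and 19 in the inputs and 39 with LC3B.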

How the results depend on the processing

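No paired analysis was possible because each group held 1 library. For LC3B over IgG 67 members were called higher and 13 lower (background 30.8% and 8.04%). A minimum of 200 input reads left 32 higher and a median log2 ratio of 0.35. Of the background, 37.3% was called higher at 200 to 499 input reads, 23.98% at 500 to 999 and 11.4% at 1000 or more. No minimum gave a median of 1.51, and bounds of 4 and 0.25 left 3 lower. Intervals widened by the variance between the inputs gave 57 higher and 10 lower. For LC3B over its input (2 higher, 4 lower), totals of all genes gave 10 higher, 0 lower and a median of 0.45; deposited TPM gave 9 and 13, point folds 10 and 7, bounds of 4 and 0.25 gave 0 and 0, and the widened intervals, added after seeing the data, 1 and 0. For IgG over its input (12 higher, 62 lower), totals of all genes gave 23 higher and a median of -0.35, point folds 22 higher, bounds of 4 and 0.25 left 1 higher, no minimum gave a median of -1.81, and a minimum of 200 reads gave 29 lower and -0.048. Between the inputs deposited TPM called 2 higher. With totals of all genes the background had 5.62% higher and 1.79% lower for LC3B over its input, and 14.1% and 27.8% for IgG over its input. Background shares were not taken for the changed minimum, deposited TPM, point folds, other bounds or widened intervals. Totals of all genes include mitochondrial reads, which the inputs hold in excess, and a higher minimum tests fewer genes; the other causes were not tested. TMM and median-of-ratios scaling, the other input and full carrier names kept each count within 1.5 times its main value. Genes with few or no IgG reads have folds over IgG that rest on the 3 reads set for an empty library or have wide intervals.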

Other observations

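Members with more reads per deposited TPM, which are those with longer transcripts in the deposited calculation, were called more often. With the members split into 3 near-equal groups by this measure, after the values were seen, 33 of the 48 in the longest group were called higher with LC3B over IgG and 3 lower, against 15 higher and 4 lower of the 47 in the shortest, and 13 against 10 had 0 IgG reads. In the longest group of the background 1651 of 3776 genes were called higher and 301 lower, and 849 had 0 IgG reads. In its shortest group 706 of 3775 were called higher and 287 lower, and 290 had 0 IgG reads. Median log2 ratios of IgG over input were -2.79 and -0.10 for the longest and shortest groups of the members, and -1.10 and 0.01 for those of the background. Input reads differed less between these groups of the members (medians 293 and 238) than of the background (346 and 825).

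Of the 154 carrier genes below the minimum, 52 had 0 reads in all 4 libraries.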
